A study of Mus musculus with 8 samples.

Results

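The 6 genes Glul, Oat, Rhbg, Slc1a2, Lect2 and Gulo were taken by name as metabolic markers of pericentral hepatocytes, the liver cells that surround the central vein. All 6 were found among the 56953 gene identifiers counted, and all 6 passed the filter on low counts, with 15669 genes tested in all. Their values came from 8 whole-liver libraries of male adult mice, 4 HSC-PCK1-KO and 4 control. In HSC-PCK1-KO mice Pck1, the gene of the cytosolic phosphoenolpyruvate carboxykinase, was knocked out in hepatic stellate cells (HSC), which store retinoids and can turn into myofibroblasts that lay down matrix, and control mice are labelled wild-type. For 8 weeks all mice of both genotypes were fed CDHFD, a high-fat diet lacking choline that is used to bring about steatohepatitis and scarring, and all libraries carry the same batch label. The sources used here give neither the driver of the deletion nor the strain. The libraries are described as biological replicates, and each title carries a number of its own.

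Hepatocytes differ along the path of blood from the portal tract to the central vein. Endothelial cells of the central vein release Wnt ligands, and in the hepatocytes beside them beta-catenin acts with TCF/LEF factors to turn on a pericentral program. Glul, the glutamine synthetase that joins ammonia to glutamate, is the best known gene of that program and is confined in normal liver to the hepatocytes nearest the vein. Around it work Oat, a mitochondrial aminotransferase that turns ornithine into a precursor of glutamate and proline, Slc1a2, a high-affinity glutamate transporter also known from astrocytes, and Rhbg, an ammonia channel also known from kidney. Lect2 encodes a secreted protein of hepatocytes that is a known beta-catenin target, and Gulo encodes the last enzyme of vitamin C synthesis, which mice have and humans have lost.

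Promoters are shown for the members in which the TCF/LEF core CTTTGA or its complement TCAAAG was found. They are 300-base windows over the transcription start, from RefSeq on build GRCm38.p6, and the capitals mark the core. RefSeq windows were matched for 4 of the 6 members, Glul, Oat, Slc1a2 and Lect2. The Slc1a2 window (chr2:102706188-102706487, plus strand) held the core at positions -206 and -77 from the start, and the Lect2 window (chr13:56548489-56548788, minus strand) held it at position -31.
Slc1a2: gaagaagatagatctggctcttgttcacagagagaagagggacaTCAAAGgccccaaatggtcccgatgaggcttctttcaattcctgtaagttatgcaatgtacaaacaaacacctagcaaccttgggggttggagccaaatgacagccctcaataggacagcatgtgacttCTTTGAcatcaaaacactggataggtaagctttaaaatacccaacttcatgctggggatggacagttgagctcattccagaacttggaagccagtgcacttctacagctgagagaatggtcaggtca
Lect2: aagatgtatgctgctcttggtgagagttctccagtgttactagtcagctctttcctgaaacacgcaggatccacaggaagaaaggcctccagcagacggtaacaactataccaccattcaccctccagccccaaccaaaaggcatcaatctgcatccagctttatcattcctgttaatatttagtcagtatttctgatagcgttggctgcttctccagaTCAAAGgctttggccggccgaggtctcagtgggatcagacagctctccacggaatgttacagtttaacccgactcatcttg
The core was found in 16% of all 32851 promoter windows of this length. The windows of Glul and Oat held no match. The run GTTAAT, which is part of the HNF1 recognition element, or its complement ATTAAC was found in Lect2 at position -78, not overlapping the core, and in 7.1% of all windows. The HNF4 element CAAAGTCCA, with its complement TGGACTTTG, was in none of the 4 windows and in 0.475% of all windows. A match is a run of letters and not a measured binding site.

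2 members share coding sequence with another annotated gene, which bears on what their counts hold. In the GENCODE M21 annotation, Rhbg shares 1190 of its 1368 coding bases (87%) with Gm38392, an overlapping gene on the same strand, and only 178 coding bases are its own. Glul shares 869 of its 1122 coding bases (77.5%), in 11 runs of at least 30 bases, with the processed pseudogene Glns-ps1. The coding strand is shown across the edge of the longest shared run in each, with the shared bases in capitals, counting coding bases from the start codon.
Rhbg, chromosome 3, coding bases 139 to 218: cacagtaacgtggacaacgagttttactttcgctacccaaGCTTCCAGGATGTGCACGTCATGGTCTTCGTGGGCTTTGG
Glul, chromosome 1, coding bases 940 to 1019: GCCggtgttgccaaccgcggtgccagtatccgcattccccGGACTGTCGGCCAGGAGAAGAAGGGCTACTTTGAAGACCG
Over windows of 100 bases, the read length, 59.4% of the Rhbg transcript windows were identical to Gm38392, but only 1.77% of those of Glul were identical to Glns-ps1, and Oat, Slc1a2, Lect2 and Gulo shared none. Gm38392 itself had 3 counts over the 8 libraries together and Glns-ps1 had 195. The sources used here do not say how reads that fit both genes were counted, so the Rhbg values are uncertain. Glul also overlaps Teddm2 over 116 exon bases and Slc1a2 overlaps Gm13872 over 189, each on the opposite strand. The library kit marked strand, but the strand setting of the counting is unknown here.

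Library totals ranged from 44695439 to 49477255 counts. The scaling factors by TMM, edgeR's trimmed mean method, were 0.942 in HSC-PCK1-KO replicate 1 and 0.949 in control replicate 2, and 0.996 to 1.06 in the other 6 libraries. CPM is the standard depth-scaled read count, here with those factors applied. Pck1 itself averaged 669 ± 264 CPM in HSC-PCK1-KO livers, against 1148 ± 616 CPM in control livers (SD, n = 4 each), with overlapping groups. Hepatocytes express it strongly, so whole liver cannot check the loss in stellate cells. By edgeR's quasi-likelihood test with Benjamini-Hochberg adjustment at 0.05, 0 of the 15669 genes were called (0%), while 370 (2.36%) had an unadjusted p under 0.05. DESeq2 called 6 genes (366 unadjusted) and limma-voom 0 (384 unadjusted). Hepatocyte identity markers summed to 86754 to 106972 CPM in HSC-PCK1-KO livers, against 90670 to 111467 CPM in control livers over the 7 of 8 symbols that matched the annotation, with none at 0. Among kidney and brain genes, Slc12a1, Aqp2 and Snap25 had no count in any library and Umod had at most 1, but 3 were counted well enough to test. These included Aqp4 at 10.2 ± 2.96 CPM in HSC-PCK1-KO livers, against 9.89 ± 1.18 CPM in control livers (SD, n = 4 each). They also included Mbp at 1.26 ± 0.486 CPM in HSC-PCK1-KO livers, against 1.48 ± 0.533 CPM in control livers. The log2 fold change was 0.04 for Aqp4 and -0.24 for Mbp.

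None of the 6 pericentral genes passed between genotypes after adjustment over all genes, the same 0% as the whole table. Lect2, Oat and Slc1a2 had positive log2 fold changes of 0.25, 0.29 and 0.14, while Glul, Gulo and Rhbg were at 0.01, 0.01 and -0.07. Lect2 was the only member with an unadjusted p under 0.05, and the only one whose groups did not overlap. Of all genes tested, 1.02% had such a p and were higher in HSC-PCK1-KO livers, and 1.34% had it and were lower. Groups did not overlap in 1.53% of genes, and in 0.721% the HSC-PCK1-KO libraries were all higher. In whole liver, fewer cells of a type and less RNA per cell cannot be told apart.

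**Figure D1:**
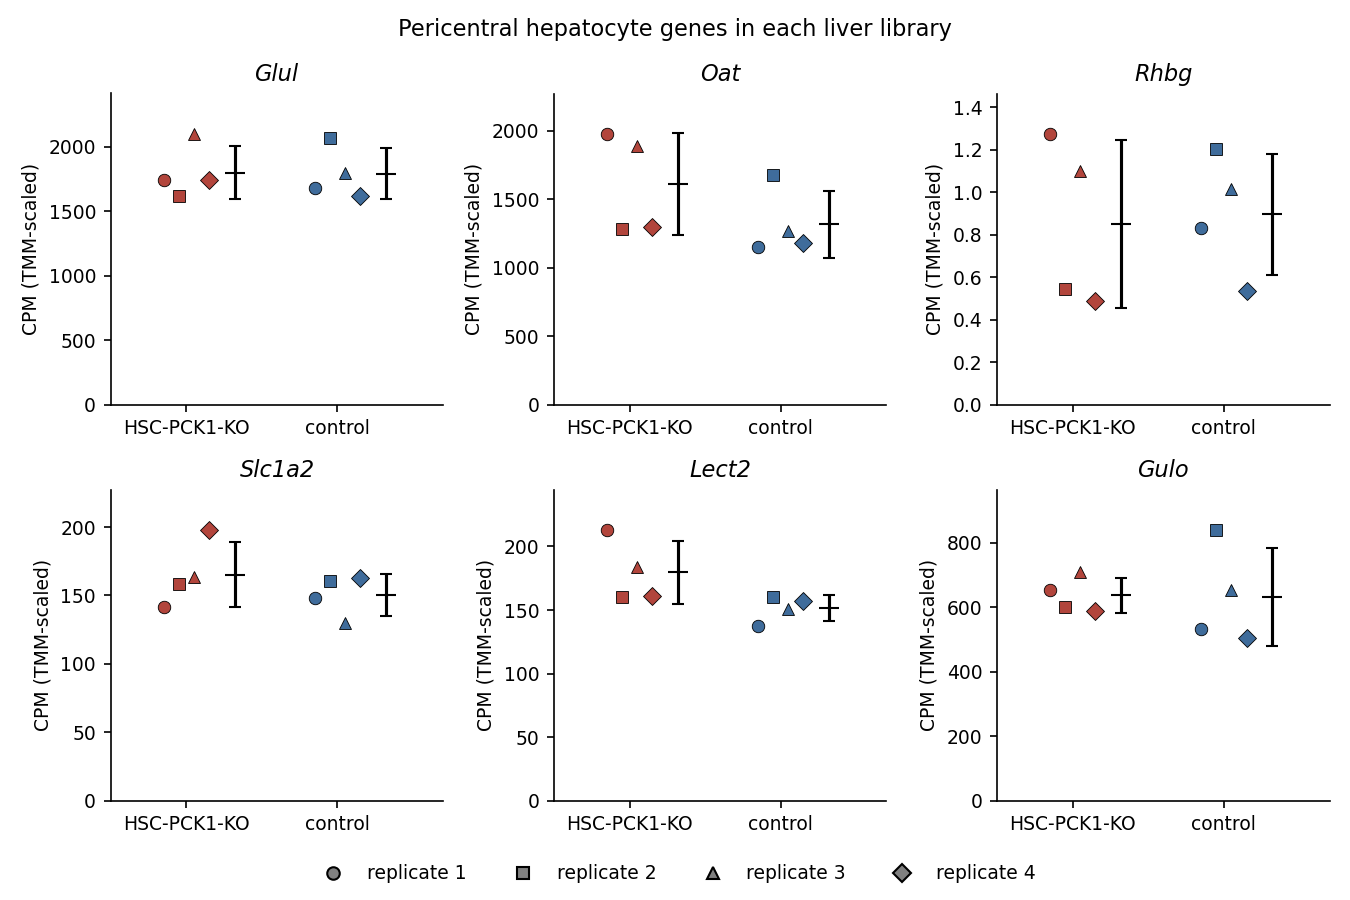
TMM-scaled CPM of each member in each of the 8 libraries, with HSC-PCK1-KO left of control; marker shapes give the replicate number, and the black mark and bar are the mean ± SD of 4 libraries. The HSC-PCK1-KO and control points overlap in every panel except Lect2, where the lowest HSC-PCK1-KO and the highest control libraries stand side by side at 160 CPM.

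Of the ammonia and glutamate genes, Glul had nearly equal means in both genotypes. Glul (ENSMUSG00000026473.17) had 1744, 1618, 2099 and 1740 CPM in HSC-PCK1-KO replicates 1 to 4 and 1679, 2069, 1796 and 1621 CPM in control replicates 1 to 4. One library of each genotype was high, HSC-PCK1-KO replicate 3 and control replicate 2, and the groups overlapped almost entirely. The means were 1800 ± 208 CPM in HSC-PCK1-KO livers, against 1791 ± 199 CPM in control livers (SD, n = 4 each). The log2 fold change was 0.01 (SE 0.12, edgeR's adjusted p = 0.9998), and its 95% interval ran from 0.841-fold to 1.20-fold.

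Oat (ENSMUSG00000030934.10, chromosome 7) varied most of the well-counted members. It had 1975, 1281, 1890 and 1295 CPM in HSC-PCK1-KO replicates 1 to 4 and 1149, 1674, 1267 and 1179 CPM in control replicates 1 to 4. 3 libraries stood at 1674 to 1975 CPM, HSC-PCK1-KO replicates 1 and 3 and control replicate 2, and the other 5 at 1149 to 1295 CPM, so both genotypes had libraries in each set. The means were 1610 ± 374 CPM in HSC-PCK1-KO livers, against 1317 ± 243 CPM in control livers (SD, n = 4 each), a log2 fold change of 0.29 (SE 0.18, edgeR's adjusted p = 0.9998) with a 95% interval from 0.927-fold to 1.61-fold. Leaving out control replicate 2 gave 0.43 (unadjusted p = 0.0317 in edgeR), and leaving out HSC-PCK1-KO replicate 1 gave 0.18. The coefficient of variation of Oat over the 8 libraries was 22.6%, higher than that of 91.5% of the 118 genes with a mean CPM within 2-fold of its own, whose median was 11.4%. Glul, at 10.5%, lay near the median of 11.7% of its own neighbours in level. The remaining members were also more variable than most genes near their level. Lect2 was above 82.8% of its neighbours, Gulo above 79.9%, and Slc1a2 and Rhbg each above 77.5%.

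Slc1a2 (ENSMUSG00000005089.16, chromosome 2) had 141, 159, 163 and 198 CPM in HSC-PCK1-KO replicates 1 to 4 and 148, 161, 130 and 163 CPM in control replicates 1 to 4. HSC-PCK1-KO replicate 4 was the highest library and control replicate 3 the lowest, and the others overlapped. The means were 165 ± 23.7 CPM in HSC-PCK1-KO livers, against 150.4 ± 15.2 CPM in control livers (SD, n = 4 each), a log2 fold change of 0.14 (SE 0.11, edgeR's adjusted p = 0.9998). Leaving out HSC-PCK1-KO replicate 4 gave 0.04, and leaving out control replicate 3 gave 0.08. The 95% interval ran from 0.923-fold to 1.31-fold.

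Rhbg (ENSMUSG00000104445.2) was counted with 57, 27, 53 and 24 reads in HSC-PCK1-KO replicates 1 to 4 and 41, 51, 48 and 28 reads in control replicates 1 to 4. That is 0.851 ± 0.395 CPM in HSC-PCK1-KO livers, against 0.896 ± 0.284 CPM in control livers (SD, n = 4 each). The groups overlapped, and the log2 fold change of -0.07 (SE 0.37, edgeR's adjusted p = 0.9998) had a 95% interval from 0.542-fold to 1.67-fold. Leaving out 1 library turned its direction in 3 cases. It stood at 0.10 when control replicate 2 was left out, at 0.09 when HSC-PCK1-KO replicate 2 was, and at 0.12 when HSC-PCK1-KO replicate 4 was.

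Lect2 (ENSMUSG00000021539.10, chromosome 13), the secreted member, had 213, 160.3, 184 and 161 CPM in HSC-PCK1-KO replicates 1 to 4 and 137, 160.2, 151 and 157 CPM in control replicates 1 to 4. HSC-PCK1-KO replicate 1 was the highest library and control replicate 1 the lowest, while HSC-PCK1-KO replicate 2 and control replicate 2 were nearly equal. The means were 180 ± 24.8 CPM in HSC-PCK1-KO livers, against 151 ± 10.2 CPM in control livers (SD, n = 4 each). The log2 fold change was 0.25 (SE 0.10) with a 95% interval from 1.01-fold to 1.39-fold, an unadjusted p of 0.0367 in edgeR and an adjusted p of 0.9998. Without HSC-PCK1-KO replicate 1 it was 0.15. The unadjusted p in edgeR was above 0.05 in 4 of the 8 fits that left out a library, at 0.0979 for control replicate 1, 0.0635 for control replicate 3, 0.113 for HSC-PCK1-KO replicate 1 and 0.0739 for HSC-PCK1-KO replicate 3. It was 0.0826 with the replicate number as a block. Scaled by library totals alone the groups overlapped, at 161.6 to 200.5 CPM in HSC-PCK1-KO livers, against 136.7 to 166.3 CPM in control livers. The log2 fold change on those totals was 0.24. With other scaling factors the groups stayed apart, but narrowly. The lowest HSC-PCK1-KO library had 160.3 CPM and the highest control library 159.7 CPM with RLE factors, and 158.78 and 158.77 CPM with upper quartile factors. The small gap between the groups was thus present only with scaling factors.

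Gulo (ENSMUSG00000034450.9, chromosome 14) had 653, 601, 708 and 589 CPM in HSC-PCK1-KO replicates 1 to 4 and 533, 840, 654 and 506 CPM in control replicates 1 to 4. Control replicate 2 held the highest and control replicate 4 the lowest value, and every HSC-PCK1-KO library lay between them. The means were 638 ± 54.4 CPM in HSC-PCK1-KO livers, against 633 ± 152 CPM in control livers (SD, n = 4 each), a log2 fold change of 0.01 (SE 0.15, edgeR's adjusted p = 0.9998) with a 95% interval from 0.795-fold to 1.28-fold. A difference in spread between genotypes was not tested.

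**Figure D2:**
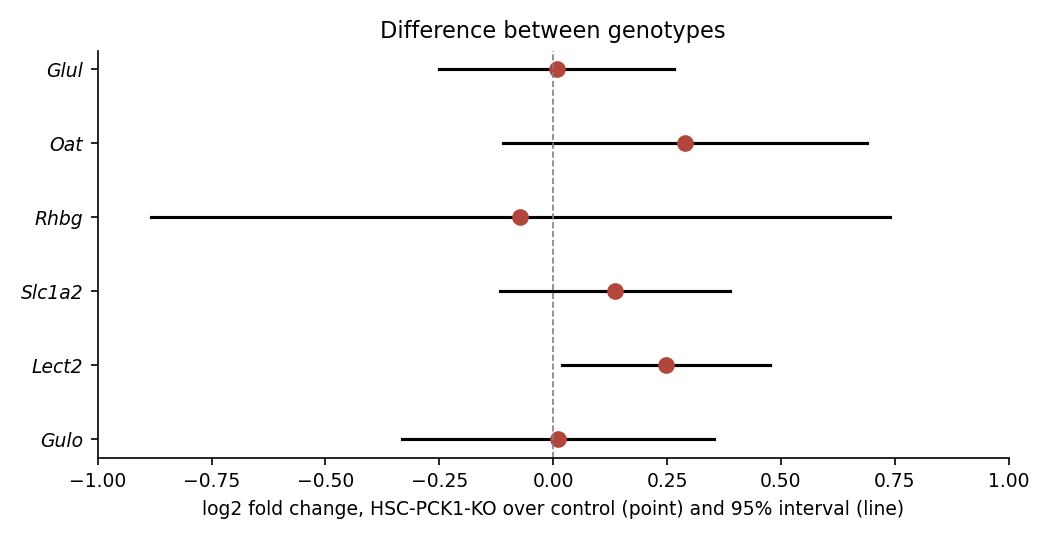
Log2 fold change of HSC-PCK1-KO over control for each member (point) with its 95% interval derived from edgeR's quasi-likelihood fit (line). The intervals of 5 members include 0, that of Lect2 runs from 0.02 to 0.48, and that of Rhbg is the widest, from -0.88 to 0.74.

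Per exon length the members spanned more than 3 orders of magnitude, with Rhbg taken over all its annotated exon bases. Oat stood at 682 ± 158 CPM per kilobase of exon in HSC-PCK1-KO and 558 ± 103 in control livers, and Glul at 542 ± 62.5 in HSC-PCK1-KO and 539 ± 60.0 in control livers (SD, n = 4 each). These neighbours did not differ beyond their spread, and Oat was the higher in 6 of 8 libraries. Gulo followed with 282 ± 24.1 CPM per kilobase in HSC-PCK1-KO and 280 ± 67.2 in control livers, and Lect2 with 195 ± 26.9 in HSC-PCK1-KO and 165 ± 11.1 in control livers. Their ranges overlapped over all libraries, though Gulo was above Lect2 in 8 of 8. Slc1a2 stood at 12.6 ± 1.80 CPM per kilobase in HSC-PCK1-KO and 11.4 ± 1.16 in control livers, a level that divides by 13133 annotated exon bases, the longest of the 6. Rhbg stood lowest at 0.440 ± 0.204 CPM per kilobase in HSC-PCK1-KO livers, against 0.463 ± 0.147 in control livers. Over only the 747 exon bases that Gm38392 does not share, Rhbg would stand at 1.14 ± 0.529 in HSC-PCK1-KO and 1.20 ± 0.380 in control livers, still the lowest of the 6. The span of the group means would then be below 3 orders of magnitude.

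**Figure D3:**
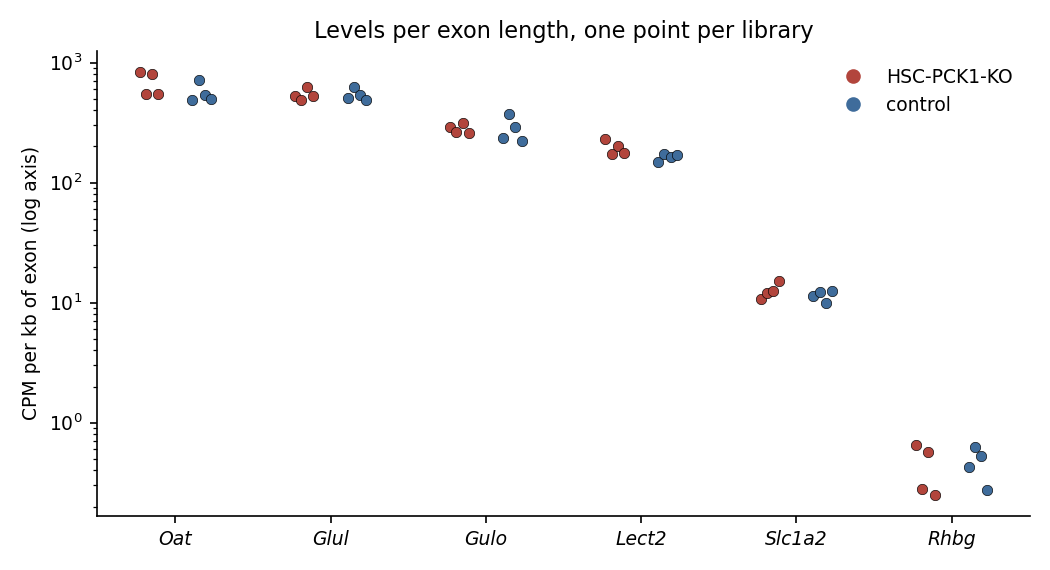
CPM per kilobase of annotated exon on a log axis, 1 point per library, with HSC-PCK1-KO left of control for each gene. Oat and Glul overlap at the top, Gulo and Lect2 come next, Slc1a2 stands between 9.88 and 15.1, and Rhbg stands between 0.252 and 0.657.

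Within their own families, Slc1a2 and Rhbg were the members with the highest level per exon length. Slc1a4, a neutral amino acid transporter, came second in the Slc1 family at 3.33 ± 0.590 CPM per kilobase in HSC-PCK1-KO and 3.20 ± 1.08 in control livers (SD, n = 4 each), so that the Slc1a2 mean was 3.78-fold that of Slc1a4 in HSC-PCK1-KO and 3.58-fold in control livers. Slc1a5, a glutamine carrier, stood at 0.578 ± 0.132 CPM per kilobase in HSC-PCK1-KO livers, against 0.651 ± 0.263 in control livers. The other glutamate transporters Slc1a1, Slc1a3, Slc1a6 and Slc1a7 had at most 33 counts in any library. Among the Rh proteins, Rhcg had no count, Rhag had at most 2 and Rhd at most 3 counts in a library.

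The genes were compared across the 8 livers in 15 pairs, of which 11 had a positive Pearson correlation of log2 CPM. Oat and Lect2 had the highest, with Pearson's r = 0.866 (p = 0.00109 by exact permutation, adjusted p = 0.0164 over 15 pairs) and Spearman's rho = 0.905 (exact permutation p = 0.00456, adjusted p = 0.0685). Glul and Gulo had Pearson's r = 0.862 (p = 0.00451 by exact permutation, adjusted p = 0.0339) and Spearman's rho = 0.833 (exact permutation p = 0.0154, adjusted p = 0.115). As deviations from the genotype means, r was 0.839 for Oat with Lect2 and 0.863 for Glul with Gulo. Leaving out the 2 libraries farthest from the median of the first gene, r was 0.530 for Oat with Lect2 (exact permutation p = 0.228) and 0.711 for Glul with Gulo (exact permutation p = 0.126), over 6 libraries and a narrower range of values. For Oat these were HSC-PCK1-KO replicates 1 and 3, and for Glul HSC-PCK1-KO replicate 3 and control replicate 2. With unscaled log2 CPM, r was 0.797 and 0.761, and neither passed adjustment (adjusted p = 0.214 for both by exact permutation). Leaving out 1 library at a time, Oat with Lect2 lost its call in 3 cases, those of control replicate 1 and of HSC-PCK1-KO replicates 1 and 3, with r between 0.802 and 0.855. Glul with Gulo passed only without HSC-PCK1-KO replicate 2, and without any other library its r lay between 0.786 and 0.914. No other pair passed adjustment by exact permutation. Slc1a2 did not share this pattern. Its r with the other 5 members lay between -0.60 with Rhbg and 0.05 with Glul, and no pair with it had an exact permutation p under 0.115. The libraries share scaling factors and cell make-up, and the part of either in these relations was not tested.

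**Figure D4:**
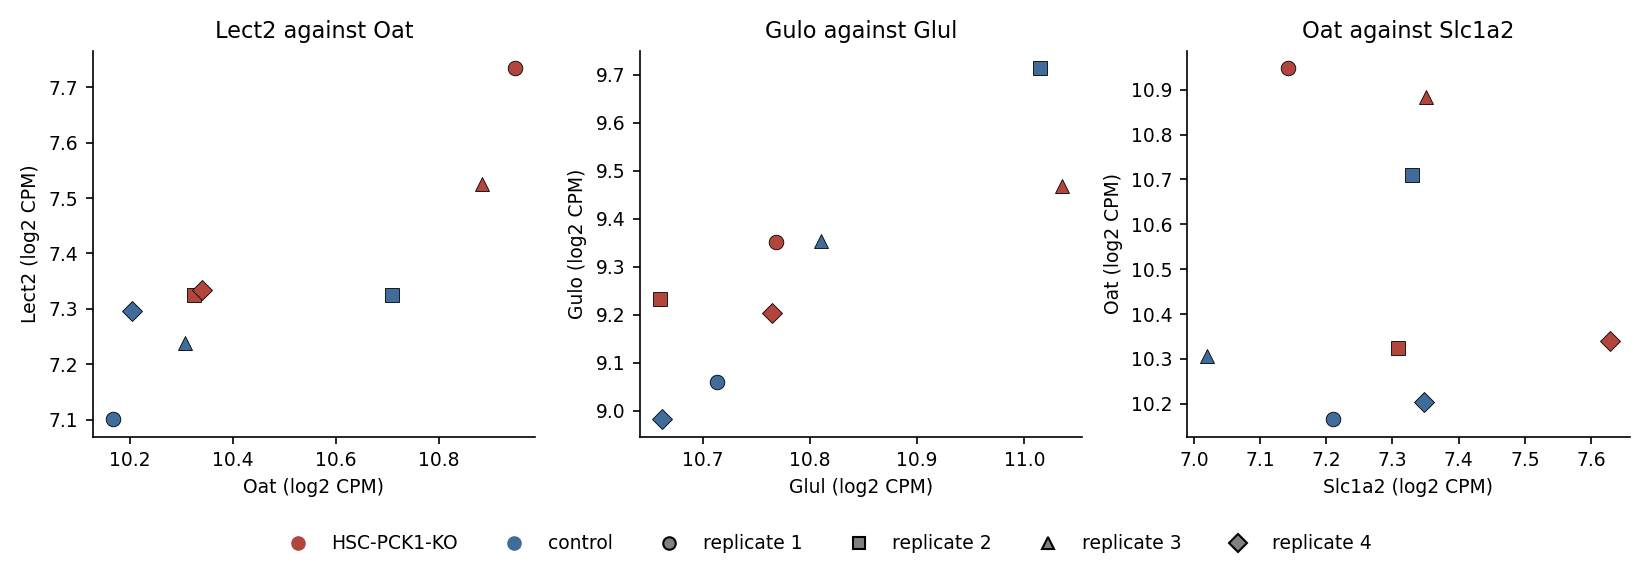
Log2 CPM of Lect2 against Oat, Gulo against Glul, and Oat against Slc1a2, 1 point per library, colored by genotype and shaped by replicate number. HSC-PCK1-KO replicates 1 and 3 hold the high end of Oat with Lect2, HSC-PCK1-KO replicate 3 and control replicate 2 the high end of Glul, and Slc1a2 shows no common direction with Oat (r = -0.08).

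The genes whose pattern over the 8 libraries was most like each member were found among 11459 named genes with a mean of at least 1 CPM, and are given as a description of a search with no test. For Glul these were Fbxo36, Ces2c and Nat8f5, with r of 0.998, 0.982 and 0.970. For Oat they were Psmg2, Gpatch4 and Eef1akmt1, with r of 0.965, 0.952 and 0.942. For Gulo they were Cth, Aadat and Gjb1, with r of 0.978, 0.978 and 0.972. Cth encodes a transsulfuration enzyme that makes cysteine, Aadat an aminotransferase of lysine and kynurenine breakdown, and Gjb1 the main gap junction protein of hepatocytes. For Lect2 they were Ankmy2, Mterf4 and Clec4g, with r of 0.958, 0.953 and 0.942, Clec4g being a lectin of sinusoidal endothelial cells. For Slc1a2 they were Tex10, Abl2 and Dkk3, with r of 0.956, 0.912 and 0.906, and for Rhbg Ndufaf7, Tmx2 and Mrpl15, with r of 0.967, 0.966 and 0.961.

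Other pericentral hepatocyte genes held no call either. Of 25 tested, 16 had a positive log2 fold change and 9 a negative one, none passed adjustment and none had an unadjusted p under 0.05 in edgeR. Their median of 0.07 stands beside 0.07 for the 6 members and -0.01 for all genes tested, of which 48.2% were positive. For the 6 members it was 0.17 when control replicate 2 was left out, and 0.05 when HSC-PCK1-KO replicate 3 was. Leaving out single libraries, the median of the 25 moved at most to 0.17 when control replicate 2 was left out, and to 0.03 when HSC-PCK1-KO replicate 1 was. Cyp2e1, which oxidizes ethanol and small solvents, stood at 7965 ± 828 CPM in HSC-PCK1-KO livers, against 7262 ± 930 CPM in control livers (SD, n = 4 each). Cyp1a2, which oxidizes caffeine, stood at 390 ± 85.5 CPM in HSC-PCK1-KO livers, against 424 ± 294 CPM in control livers. The smallest p value belonged to Aldh3a2, a fatty aldehyde dehydrogenase, whose log2 fold change was 0.33 (SE 0.18).

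Direct Wnt target genes were split, 4 positive and 6 negative of 10, with none called, none at an unadjusted p under 0.05 in edgeR and a median of -0.02. The median was 0.10 without control replicate 2 and -0.07 without control replicate 1. Axin2, a feedback inhibitor of the pathway, stood at 10.4 ± 1.16 CPM in HSC-PCK1-KO livers, against 10.2 ± 1.88 CPM in control livers (SD, n = 4 each). Tbx3, a T-box factor, had 46.2 ± 9.24 CPM in HSC-PCK1-KO livers, against 47.2 ± 10.2 CPM in control livers. Lgr5, an R-spondin receptor, stood at 8.96 ± 1.86 CPM in HSC-PCK1-KO livers, against 7.70 ± 1.28 CPM in control livers, with overlapping groups, and Tcf7, a TCF/LEF factor, had a log2 fold change of -0.13 (SE 0.15).

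Among 11 Wnt ligands, R-spondin and receptor genes, 8 were positive and none passed adjustment, with a median log2 fold change of 0.02 that was -0.03 when HSC-PCK1-KO replicate 4 was left out, and 0.06 when HSC-PCK1-KO replicate 3 was. Wnt9b, a ligand of central vein endothelium, was the only one with an unadjusted p under 0.05. It had 1.34, 0.704, 1.60 and 1.10 CPM in HSC-PCK1-KO replicates 1 to 4 and 0.791, 0.825, 0.761 and 0.747 CPM in control replicates 1 to 4. HSC-PCK1-KO replicate 2 was below every control library and the other 3 HSC-PCK1-KO libraries were above them, at counts of 35 to 77 per library. Its log2 fold change was 0.60 (SE 0.26, unadjusted p = 0.0396 and adjusted p = 0.9998 in edgeR). Wnt2, a further endothelial ligand, had 4.13 ± 1.12 CPM in HSC-PCK1-KO livers, against 3.26 ± 0.705 CPM in control livers, and Rspo3, which amplifies Wnt signals, had 5.80 ± 0.508 CPM in HSC-PCK1-KO livers, against 5.49 ± 0.398 CPM in control livers (SD, n = 4 each). Lrp5, a Wnt co-receptor, had a log2 fold change of -0.17 (SE 0.10).

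Glutamine made beside the central vein is matched by glutamine breakdown beside the portal tract, where Gls2 encodes the liver glutaminase. Gls2 stood at 296 ± 19.9 CPM in HSC-PCK1-KO livers, against 290 ± 65.4 CPM in control livers (SD, n = 4 each). The log2 ratio of Glul to Gls2 within a library was 2.46, 2.53, 2.76 and 2.65 in HSC-PCK1-KO replicates 1 to 4 and 2.86, 2.53, 2.42 and 2.78 in control replicates 1 to 4. The groups overlapped, with means of 2.60 ± 0.13 in HSC-PCK1-KO and 2.65 ± 0.20 in control livers (SD, n = 4 each), a difference of -0.05 (two-sided exact permutation p = 0.714, where the smallest possible with 70 assignments is 0.0286). Of 16 tested genes of glutamine, glutamate and ammonia handling outside the 6 members, 7 were positive and 9 negative around a median of -0.04 (log2 fold change) with no call, and 4 further ones, Slc38a5, Slc1a1, Rhag and Rhcg, were too low to test. Their smallest p value belonged to Slc38a3, a glutamine carrier of hepatocytes, at -0.24 (SE 0.14). The median was -0.09 when HSC-PCK1-KO replicate 3 was left out, and 0.02 when control replicate 2 was.

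The pathways around Oat and Gulo held no call. Of 11 ornithine and proline genes tested, 8 were positive, with a median log2 fold change of 0.06 that was -0.03 when HSC-PCK1-KO replicate 3 was left out, and 0.11 when control replicate 2 was. Arg1, the arginase that makes ornithine, stood at 935 ± 51.6 CPM in HSC-PCK1-KO livers, against 1024 ± 153 CPM in control livers (SD, n = 4 each). Prodh, proline dehydrogenase, which is also in the list of other pericentral genes, stood at 209 ± 34.7 CPM in HSC-PCK1-KO livers, against 183 ± 40.4 CPM in control livers. Of 9 genes of vitamin C synthesis and transport, 7 were positive, with a median of 0.06 that was 0.03 when HSC-PCK1-KO replicate 1 was left out, and 0.10 when HSC-PCK1-KO replicate 3 was. Akr1a1, the aldehyde reductase that makes gulonate, the acid ahead of Gulo in the pathway, stood at 547 ± 61.6 CPM in HSC-PCK1-KO livers, against 494 ± 30.9 CPM in control livers, and Slc23a1, a vitamin C transporter, had a log2 fold change of -0.12 (SE 0.10). The 3 reported LECT2 receptors had log2 fold changes of 0.03 to 0.16, with Tie1 at 0.09 (SE 0.09) and Cd209a, at only 8 to 22 counts per library, at 0.16 (SE 0.32). Leaving out replicate 4 of either genotype turned 1 of the 3 negative, and their median ranged from 0.05 to 0.14 over the 8 libraries left out.

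Periportal genes, from the other end of the lobule, split 10 to 12 between positive and negative log2 fold changes, around a median of -0.02, and none of the 22 was called or had an unadjusted p under 0.05 in edgeR. The median was 0.07 without control replicate 2 and -0.10 without control replicate 1. Ass1, an enzyme of the urea cycle, stood at 2422 ± 142 CPM in HSC-PCK1-KO livers, against 2315 ± 388 CPM in control livers (SD, n = 4 each). Cps1, which commits ammonia to that cycle, stood at 2674 ± 267 CPM in HSC-PCK1-KO livers, against 2845 ± 1049 CPM in control livers. Besides Pck1, the smallest p belonged to Uroc1, an enzyme of histidine breakdown, at 0.10 (SE 0.08). A difference between the pericentral and periportal lists was not tested. The lists share genes, so their counts and medians are not separate. Gls2 and Cps1 are also in the glutamine and ammonia list, and Arg1 and Otc also in the ornithine and proline list. Slc1a4 of the glutamine and ammonia list and Rgn of the vitamin C list are also among the other pericentral genes.

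**Figure D5:**
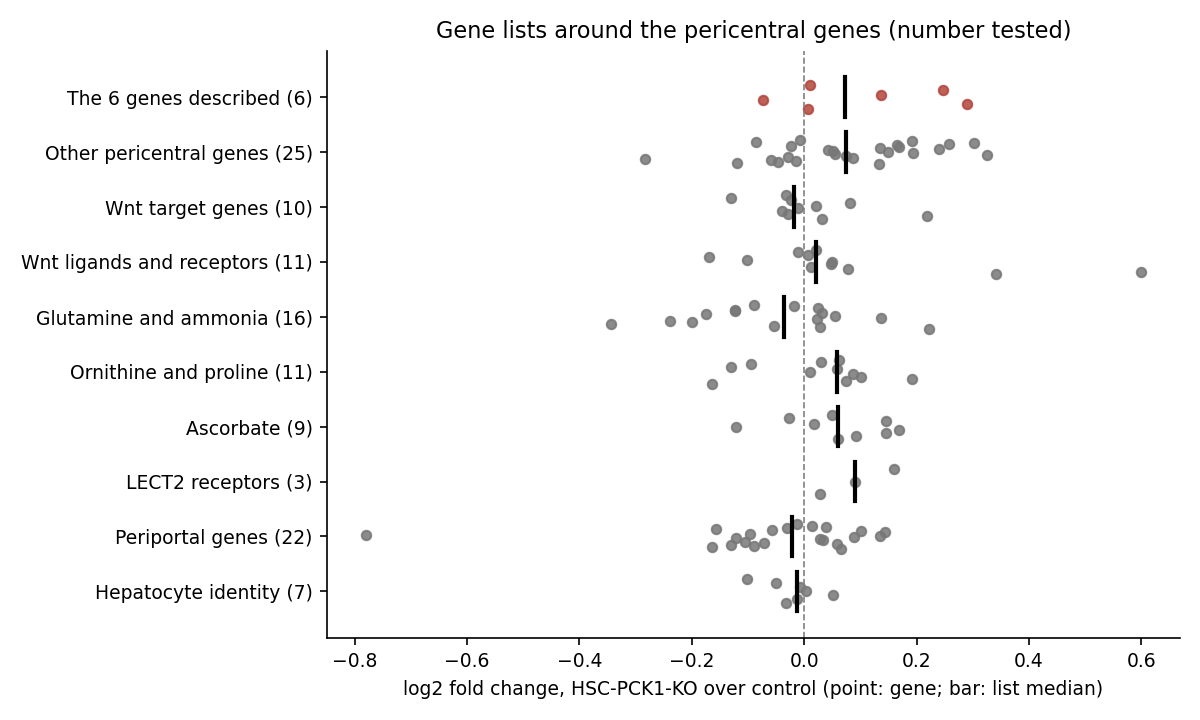
Log2 fold change of HSC-PCK1-KO over control for each gene tested in 10 lists (points) with the list median (bar); the number tested stands in parentheses. List medians lie between -0.04 and 0.09, and the point farthest to the left is Pck1 among the periportal genes, at -0.78.

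Other cell types were followed by markers. Stellate cell and myofibroblast markers summed to 131 to 196 CPM in HSC-PCK1-KO livers, against 174 to 277 CPM in control livers, with 9 of 10 log2 fold changes negative around a median of -0.25. That median became -0.13 when HSC-PCK1-KO replicate 1 was left out, -0.12 when control replicate 4 was, and -0.40 when control replicate 2 was, with 0 of 10 then positive. Reln, a stellate cell glycoprotein, was at -0.24 (SE 0.11). Endothelial markers, 4 positive and 4 negative, summed to 173 to 234 CPM in HSC-PCK1-KO livers, against 191 to 223 CPM in control livers, and the smallest p values were those of Clec4g at 0.19 (SE 0.10) and Cdh13 at 0.25 (SE 0.18). Their median of 0.01 ranged from -0.03 to 0.11 as single libraries were left out. Macrophage markers summed to 132 to 231 CPM in HSC-PCK1-KO livers, against 154 to 261 CPM in control livers, with 6 of 8 negative, Cd68 at -0.22 (SE 0.26) and Ccr2 at -0.35 (SE 0.47), and their median of -0.13 was 0.17 without control replicate 4, -0.25 without control replicate 2 and -0.26 without control replicate 3. Cholangiocyte markers summed to 30.8 to 78.5 CPM in HSC-PCK1-KO livers, against 28.6 to 138 CPM in control livers, with 4 of 5 tested negative. Krt19 was at -0.61 (SE 0.25, unadjusted p = 0.0333 in edgeR) and Krt7 at -0.34 (SE 0.33). Both were low, at 23 to 59 counts per library for Krt19 and 17 to 50 for Krt7, and both had overlapping groups. Among runs leaving out 1 library, only those lacking replicate 2 of either genotype gave any marker here an unadjusted edgeR p under 0.05. The median of the cholangiocyte markers, -0.23 over the 5 tested, ranged from -0.44 when control replicate 2 was left out to 0.02 when HSC-PCK1-KO replicate 1 was. In both of those fits 6 genes were tested, so the gene set changed too. None of these lists had a member at 0 in all libraries. Their part in the levels of the 6 pericentral genes was not tested.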

How the data were processed

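Whole-liver RNA of 8 samples was sequenced. Per the labels, libraries were strand-specific with paired reads of 100 bases. The authors deposited raw counts, 1 whole number per gene and library. Per the submitters' processing notes, the build was GRCm39 and R 4.3.2 was used. The sources used here do not give the aligner, counter, annotation, strand setting or handling of multiple matches. Symbols came from GENCODE M21 (GRCm38) by identifier, which named 52029 of 56953, and exon lengths and shared sequence came from the same release. Of 159 list symbols, 157 matched, all but Pycr3 and Tf.

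The test was edgeR 4.0.16 in R 4.3.3: filterByExpr, TMM factors, quasi-likelihood F-test with robust dispersion and genotype as the only term, Benjamini-Hochberg adjustment over 15669 genes and a threshold of 0.05. Fold changes are HSC-PCK1-KO over control, on the log2 scale. Log2 CPM used a prior count of 2. The calculation was tested on simulated data. Totals per library were 44695439 to 49477255 counts, and log2 fold changes had a median SE of 0.13. Correlations and the Glul to Gls2 ratio used exact permutation tests.

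The members and lists were chosen with earlier results of these data known. Named genes were the 6 members, the 2 of smallest p in each list, Gls2, Cyp2e1, Cyp1a2, Axin2, Lgr5, Tbx3, Ass1, Cps1 and the 3 genes most correlated with each member. Wnt2, Rspo3, Spp1 and the relatives of Slc1a2 and Rhbg were named after their values were known. A few genes that the rule names are not reported here. Tried instead were DESeq2 1.42.0, voom from limma 3.58.1 with weighted samples, upper quartile or RLE scaling, a filter of 1 CPM in 4 libraries or none, a block for the replicate number, an adjusted p of 0.1, a prior count of 0.5 for the ratio, and each library left out. Unscaled totals, and the correlations and list medians without single libraries, were added after seeing the data.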

Additional observations from a re-analysis of the deposited data

Results flagged for a closer look

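In 84 groups of 4 libraries, 3 held a library far from the other 3, where chance gives 4.2, and none of these was in a member of the pericentral set. Uroc1 had 569 CPM in HSC-PCK1-KO replicate 1, against 490 to 498 CPM in the other 3 HSC-PCK1-KO libraries. Prodh had 158 CPM in HSC-PCK1-KO replicate 2, against 221 to 233 CPM in the others. Reln had 42.9 CPM in HSC-PCK1-KO replicate 1, against 59.0 to 62.3 CPM in the others.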

How the results depend on the processing

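None of the 6 genes passed adjustment under any alternative run. Leaving out each library in turn, the log2 fold change ranged from -0.0752 to 0.0841 for Glul, 0.18 to 0.43 for Oat, -0.33 to 0.12 for Rhbg, 0.04 to 0.20 for Slc1a2, 0.15 to 0.30 for Lect2 and -0.0803 to 0.18 for Gulo. Oat, Slc1a2 and Lect2 kept a positive sign in all of these, though edgeR's unadjusted p of Lect2 was above 0.05 in 4 of the 8 and with the block, and that of Oat was 0.0317 without control replicate 2. The sign turned in 10 cases. For Glul these were control replicates 1 and 4 (-0.02 and -0.04) and HSC-PCK1-KO replicate 3 (-0.0752). For Rhbg they were HSC-PCK1-KO replicates 2 and 4 (0.09 and 0.12) and control replicate 2 (0.10). For Gulo they were HSC-PCK1-KO replicates 1 and 3 (-0.00105 and -0.04) and control replicates 1 and 4 (-0.06 and -0.0803). The HSC-PCK1-KO minus control difference in the log2 ratio of Glul to Gls2 ranged from -0.12 to 0.0233 and was positive without control replicate 1. The cause was not tested. No sign of the 6 turned with RLE, upper quartile or no scaling factors, the other filters, DESeq2, limma-voom or the block.

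Genes called over the whole table numbered 0 in edgeR's fit (370 at an unadjusted p under 0.05), 6 with DESeq2, 0 with limma-voom, and 0 to 1 leaving out single libraries, the 1 being without control replicate 1. The correlation of Glul with Gulo was 0.76 with unscaled log2 CPM, 0.71 without the 2 farthest libraries and 0.79 to 0.91 leaving out each library (exact permutation, adjusted p from 0.0432 to 0.165). That of Oat with Lect2 was 0.80, 0.53 and 0.80 to 0.93 (adjusted p from 0.0179 to 0.0811). The sample titles do not say whether same-numbered libraries are pairs. Deviations of same-numbered libraries correlated at -0.03, -0.33, -0.06 and 0.06, which does not settle it. With the replicate block, 0 genes were called and Lect2 stood at 0.24, Oat at 0.28, Slc1a2 at 0.13, Gulo at 0.04, Glul at 0.01 and Rhbg at -0.12.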
